A study of Hordeum vulgare with 12 samples.

Results

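The sequences described here were 21-nt small RNAs (sRNAs) of barley roots that had no perfect match in miRBase, the public collection of microRNA sequences, and that the study deposited because their read counts differed between low-Pi and control roots. All 247 sequences of 21 nt among the 1796 sequences of that root table were taken, 13.8% of it, which made this the second most frequent of the 8 lengths between 18 and 25 nt. They were chosen by their length and, upstream of that, selected on the very counts given below, so direction and size are descriptions and carry no test. Each was numbered by its mean abundance over the root libraries, M1 being the most abundant.

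The plants were barley (Hordeum vulgare), cultivar Rolap, harvested at 23 days of age from pots of 3 seedlings. Low-Pi plants grew on soil with 8 mg P/kg and received no added phosphate, and control plants grew on the same soil with 60 mg P/kg added as KH2PO4, so both groups shared the low-Pi soil. Each group had 3 root libraries, numbered 4, 5 and 6 for low Pi and 16, 17 and 18 for control, and 3 shoot libraries with the same numbers. Per the study's methods the libraries of a group were biological replicates, each from the plants of its own pot. All low-Pi root libraries were deeper (14999744 to 17614581 reads) than the control root libraries (7470998 to 11434616 reads). Values are reads per 1000000 reads of the library (RPM), and a ratio is the mean RPM of the low-Pi libraries over the mean RPM of the control libraries, given as log2 with its standard error (SE) from the spread between libraries.

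In plants, 21 nt is the usual length of microRNAs, which DICER-LIKE 1 cuts from hairpin precursors, and of many phased small interfering RNAs. Most microRNAs start with U, the first base preferred by ARGONAUTE1, the protein that carries them to complementary transcripts. sRNA libraries also hold pieces of longer RNAs, above all of ribosomal RNA (rRNA), the structural RNA of the ribosome and the largest store of phosphorus among cellular RNAs. The microRNA best known from phosphate starvation is miR399, which moves from shoot to root and lowers the transcript of PHO2, an enzyme that marks phosphate transporters for breakdown.

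The most abundant members are shown first because their overlaps carry much of what follows; in each, the capital marks the first base, and sequences are written as DNA from the 5′ end.
M1: Acctactcgacccttcggccg
M2: Cctactcgacccttcggccgg
M3: Tccttttggctccaaggcccg
M4: Cgcggcgagagcgggtcgccg
M5: Ttggcggattgctcgagctgc
M6: Accctgttgagcttgactcta
M7: Caccgacctactcgacccttc
M8: Accgacctactcgacccttcg
All of these match barley rRNA in the study's annotation, and also transcripts filed as protein-coding or non-translating. M2 starts 1 base after M1, and M7 and M8 start 5 and 4 bases before it, so these 4 members are windows on a single stretch.

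Of the 247 members, 217 (87.9%) had a higher mean RPM in low-Pi roots and 30 (12.1%) a lower one. Over the whole table, 86.7% of sequences were higher and 13.3% lower, so the 21-nt sequences were close to the rest. In whole roots, a change in the share of a cell type and a change in RNA per cell cannot be told apart, and the part that the deeper low-Pi libraries have in these counts was not tested. By single libraries, 209 members had all low-Pi values above all control values, where 85.0% of the whole table did, and 30 had all low-Pi values below, where 13.1% of the whole table did. The other 8 members, M6 and M20 among them, were higher on average but their groups overlapped. The root miRBase table was deposited without that selection: of the 245 it holds at a mean RPM of 1 or more, 6.94% lay wholly above control in low-Pi roots and 42.4% wholly below.

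The median log2 ratio was 1.71 over all members and 1.74 over the other lengths. Higher members had a median of 1.98 and lower members a median of -2.32. No member lay between -1.77, the ratio of M33, and 0.11, the ratio of M20, whereas other lengths filled part of that gap (ratios of -0.07 and 0.02 were the closest to 0 in the whole table). Sequences outside the deposited selection were not analysed here, so the values just beyond the study's threshold cannot be given. M20 (Accgaggcgcgtcaattgctg) is placed by the study's annotation in both the small nuclear RNA and the protein-coding class. It had 108.7, 110.0 and 116.2 RPM in low-Pi roots and 106.0, 88.4 and 116.5 RPM in control roots. M33 (Cctccggttgccgtcgtcgac), annotated to a protein-coding transcript, had 22.7, 23.4 and 26.5 RPM in low-Pi roots and 81.2, 66.5 and 100.1 RPM in control roots. The M20 values overlapped between groups and the M33 values did not.

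The ratios depended on the scale. Reads matching miRBase made up 0.940 to 1.22% of the low-Pi root libraries and 1.61 to 1.91% of the control root libraries, and the median miRBase sequence with at least 1 RPM had a log2 ratio of -0.70. When miRBase reads set the scale in place of library totals, the members' median log2 ratio was 2.34 instead of 1.71, no member changed direction and the groups of all 247 members were separate. M20, the member nearest to 0, then stood at 0.75 or above, as did every other higher member. The lower members came nearer to 0: M33 had a log2 ratio of -1.12 instead of -1.77, and M30, another lower member, -2.24 instead of -2.88.

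**Figure D1:**
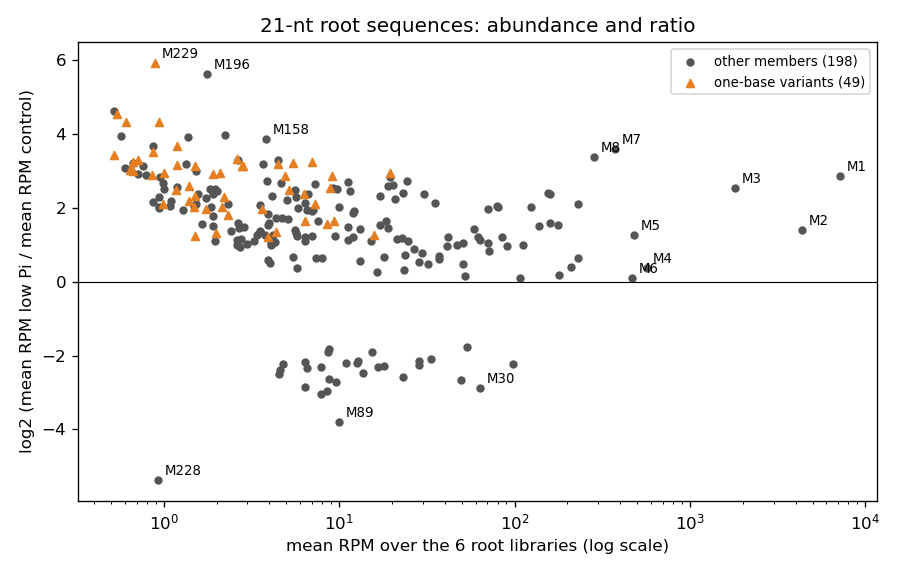
Each point is a 21-nt root sequence. The x axis is its mean RPM over the 6 root libraries (log scale) and the y axis its log2 ratio of low Pi over control; triangles mark the 49 one-base variants of a more abundant member. Points lie above 0.11 or below -1.77, and the most abundant members are all above 0.

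Abundance was very uneven. Mean RPM over the 6 root libraries ran from 0.521 to 7219.3 with a median of 5.85, and 20 members reached 100 RPM while 27 stayed under 1 RPM. Together the members held 3.14% ± 0.443 of all reads in low-Pi roots and 0.945% ± 0.0922 in control roots (SD, n = 3 each), with single libraries at 3.20, 3.55 and 2.67% in low Pi and 0.958, 1.03 and 0.847% in control. The share was thus 3.32 times as large in low-Pi roots, and no low-Pi library came near a control library. Among the reads of this table alone the members took 10.3% ± 0.850 in low-Pi roots and 10.2% ± 0.189 in control roots, so the 21-nt class held its place within the selected sequences. M1 by itself made up 40.0% ± 5.70 of the members' reads in low-Pi roots and 18.4% ± 3.81 in control roots.

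M1 had 11718.1, 16526.0 and 9800.8 RPM in low-Pi roots and 2126.3, 1910.4 and 1234.5 RPM in control roots, a log2 ratio of 2.85 (SE 0.32). M2, its neighbour 1 base downstream, had 5934.3, 6903.5 and 6249.6 RPM in low-Pi roots and 2551.0, 3069.9 and 1594.7 RPM in control roots, a log2 ratio of 1.40 (SE 0.27). So M1 was the more abundant of the pair in every low-Pi library and the less abundant in every control library. M3, from another stretch of rRNA, had 4185.7, 2458.1 and 2577.4 RPM in low-Pi roots and 537.5, 465.8 and 593.8 RPM in control roots (log2 2.53, SE 0.28). Low-Pi library 4 was the highest for M3 and library 5 for M1, so no single library led throughout. Over the 217 higher members, library 4 was the highest low-Pi library for 89, library 5 for 85 and library 6 for 43.

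The steepest ratios among the abundant members belonged to M7 and M8. M7 had 875.1, 741.1 and 469.5 RPM in low-Pi roots against 50.2, 62.7 and 60.0 RPM in control roots (log2 3.59, SE 0.27). M8 had 576.1, 661.8 and 313.4 RPM in low-Pi roots against 38.2, 72.8 and 40.2 RPM in control roots (log2 3.36, SE 0.43). Both were over 10 times as abundant in low Pi, with library 6 the lowest of its group each time. M5 had 682.5, 737.5 and 610.9 RPM in low-Pi roots and 293.3, 336.4 and 213.2 RPM in control roots (log2 1.27, SE 0.20).

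The remaining abundant members differed little. M4 had 639.5, 591.0 and 691.2 RPM in low-Pi roots and 361.6, 573.1 and 539.7 RPM in control roots (log2 0.38, SE 0.20), its lowest low-Pi value lying just above its highest control value. M6 had 537.0, 436.5 and 488.1 RPM in low-Pi roots and 447.6, 419.0 and 483.6 RPM in control roots (log2 0.11, SE 0.10), and these groups overlapped. By unscaled counts M6 had 8055, 7688 and 7358 reads in the deeper low-Pi libraries and 5118, 3390 and 3613 reads in the control libraries, which do not overlap.

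**Figure D2:**
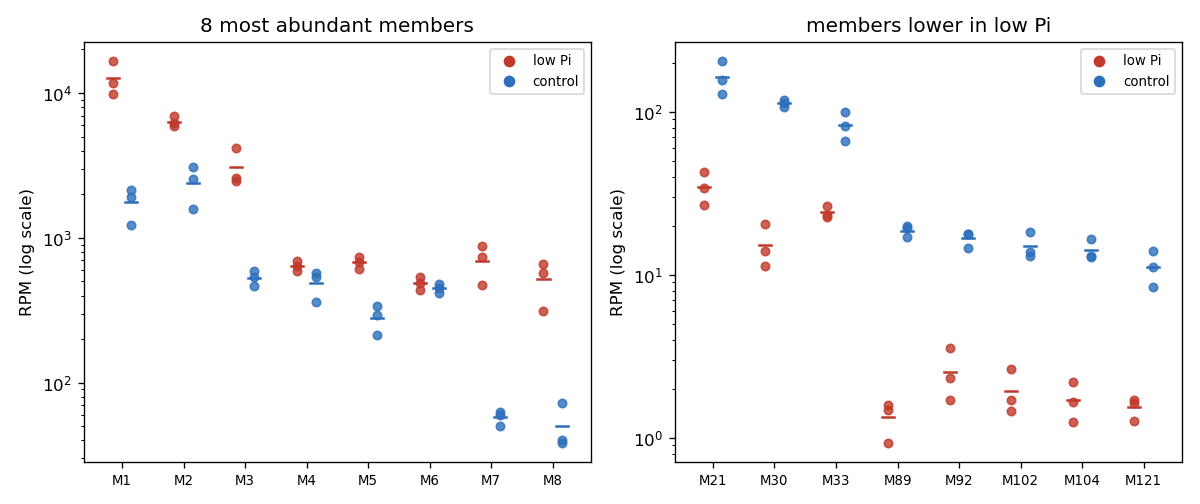
Points are RPM in single root libraries (log scale) for low Pi and control, and short bars are group means (n = 3 each). The left panel shows the 8 most abundant members, of which M6 alone has overlapping groups; the right panel shows 8 of the 30 members that were lower in low Pi, none of which overlaps.

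Overlap with other sequences was the rule. With an exact overlap of at least 15 bases as the link, 209 members shared bases with another sequence of the root table and 38 stood alone, and the members fell into 162 groups. The largest group held 190 sequences of all lengths, 28 of them members, and every sequence in it was higher in low-Pi roots, with log2 ratios from 0.56 to 5.91. It accounted for 15.9% ± 1.40 of all reads in low-Pi root libraries and 3.35% ± 0.856 in control root libraries (SD, n = 3 each). The second group, around M3, held 90 sequences with 9 members, all higher, at 2.06% ± 0.221 of reads in low-Pi roots and 0.360% ± 0.0365 in control roots. Members of 1 group share their source and are not separate observations.

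Joining the most abundant overlapping sequences end to end gave the stretch around M1 and the stretch around M3, printed with that member in capitals.
M1 stretch: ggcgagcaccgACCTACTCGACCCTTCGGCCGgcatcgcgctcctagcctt
M3 stretch: tccccTCCTTTTGGCTCCAAGGCCCGg
The first is 51 nt long and contains 49 sequences of the table without a mismatch, 9 of them members. The second is 27 nt long and contains 25, of which 3 are members.

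Within these stretches the ratios were set out by 3′ end, a view chosen after the values were seen. In the M1 stretch, the 17 sequences that ended 6, 5 or 4 bases before the end of M1 had log2 ratios from 2.11 to 3.69, M7, M8 and M84 among them. The 6 that ended 3 bases before it had ratios from 0.90 to 1.68, and M36 (Ccgacctactcgacccttcgg), the member with this end, had 1.05. The 5 that ended with M1 had 2.05 to 2.85, the 3 that ended 1 base later, M2 among them, had 1.40 to 1.83, and the 3 that ended 3 bases later had 0.56 to 0.84. The spread at a common 5′ start varied: the 5 that started with M2 ran from 0.84 to 2.56, the 4 that started with M36 from 1.05 to 3.07, and the 3 that started with M84 only from 2.14 to 2.56. M42 (Tactcgacccttcggccggca), ending 3 bases after M1, had 49.1, 40.3 and 48.2 RPM in low-Pi roots and 29.7, 25.8 and 28.9 RPM in control roots, a log2 ratio of 0.70 (SE 0.11).

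In the M3 stretch, the ratios at 2 neighbouring 3′ ends did not overlap. The 8 sequences that ended with M3 had log2 ratios from 1.86 to 3.23, and the 7 that carried 1 more base, a G, had ratios from 0.66 to 1.31. Other ends did overlap these: the 7 that ended 1 base before M3 had ratios from 1.24 to 2.85. Single sequences that ended 2, 3 and 8 bases before it had 1.10, 1.39 and 0.81. Among members, M67 (Ccttttggctccaaggcccgg) carried that base and had 24.0, 20.8 and 21.8 RPM in low-Pi roots and 15.4, 13.8 and 13.0 RPM in control roots (log2 0.66, SE 0.09). M61 (Ctccttttggctccaaggccc), which ended 1 base before M3, had 36.8, 32.1 and 35.2 RPM in low-Pi roots and 5.86, 6.06 and 4.95 RPM in control roots (log2 2.62, SE 0.10). Those members overlap by all but a few bases. They were picked after their values were seen, and the difference between their ratios was not tested. M61 starts and ends 2 bases before M67, so the pair differs at both ends. The 3 sequences that started with M67 had ratios from 0.66 to 1.86.

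**Figure D3:**
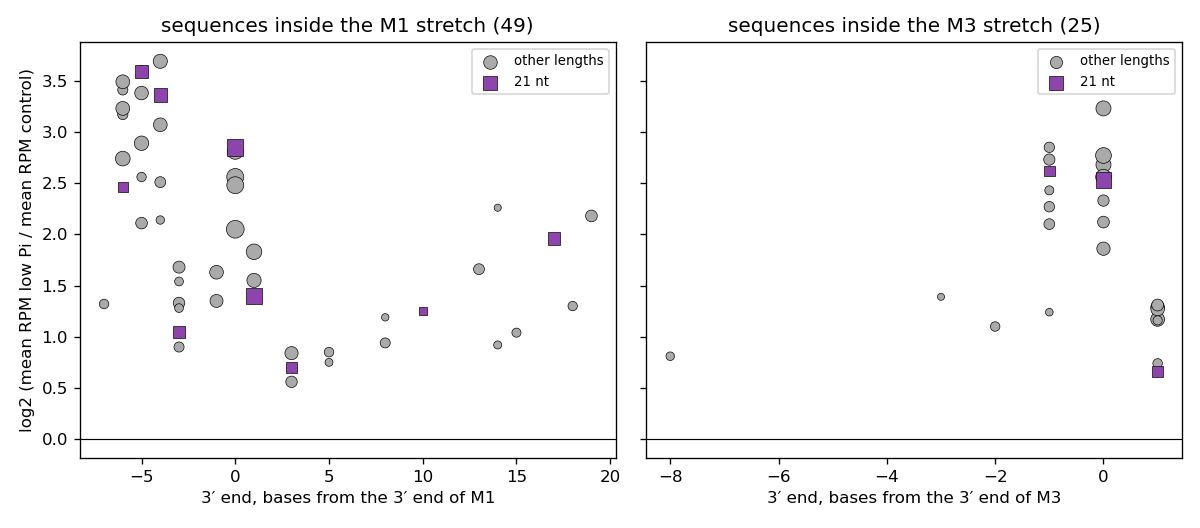
Each point is a sequence found without mismatch in the M1 stretch (49 sequences) or the M3 stretch (25 sequences). The x axis is the distance in bases of its 3′ end from the 3′ end of M1 or M3, the y axis its log2 ratio of low Pi over control, squares are members of 21 nt, circles other lengths, and larger symbols are more abundant. In the M1 panel points at -6 to -4 lie between 2.11 and 3.69 and those at -3 between 0.90 and 1.68; in the M3 panel points at 1 lie between 0.66 and 1.31.

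Across the whole table, each member was set beside sequences that differed at 1 end. Over 111 pairs of a member and a sequence with the same 5′ start whose 3′ ends lay 1 base apart, the log2 ratios differed by a median of 0.60. Over 147 pairs with the same 3′ end whose 5′ starts lay 1 base apart, they differed by a median of 0.40. Leaving out the largest and second largest groups, these medians were 0.57 over 86 pairs and 0.44 over 111 pairs. For comparison, the median spread of a log2 ratio between replicates was 0.47, so these medians are of about that size. Many pairs share a sequence, so they are not independent, and a difference between 3′ and 5′ ends was not tested.

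Directions were then compared between overlapping sequences, in a table where most sequences were higher, so that most pairs would share a direction without any link. Of 2024 pairs of a member and another sequence sharing at least 15 bases, 1989 had the same direction and 35 opposite directions. Outside the largest and second largest groups, in which every sequence was higher, 1095 of 1130 pairs had the same direction. Of the 195 pairs that held a lower member, both sequences were lower in 179. Between members, 112 of 114 pairs had the same direction, and the 43 pairs shifted by 1 base all did. The 35 opposite pairs involved 16 members, 5 of them lower and 11 higher. Places of this kind around M30, M76 and M21 are printed with the shared bases in capitals, because overlapping sequences there went in opposite directions.
M30: actgGTACGGACAAGGGGAAT
20-nt neighbour of M30: GTACGGACAAGGGGAATccg
M76: aggtgTAGGATAAGTGGGAGC
M31: TAGGATAAGTGGGAGCcctta
M21: aacggATATCTCGGCTCTCGC
23-nt neighbour of M21: ATATCTCGGCTCTCGCatcgatg

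M30, annotated to rRNA, had 11.4, 14.0 and 20.4 RPM in low-Pi roots against 113.0, 117.9 and 106.3 RPM in control roots (log2 -2.88, SE 0.26). Its 20-nt neighbour, which starts 4 bases later, had 164.9, 93.3 and 86.6 RPM in low-Pi roots against 32.5, 26.0 and 27.4 RPM in control roots (log2 2.01). A 25-nt sequence that contains M30 whole had 157.8, 108.1 and 102.5 RPM in low-Pi roots against 65.2, 48.8 and 75.4 RPM in control roots (log2 0.96). Thus a longer and a shorter form were higher in low-Pi roots where M30 itself was lower, without overlap between groups in any of them.

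M76 had 4.0, 3.52 and 4.91 RPM in low-Pi roots and 19.9, 21.5 and 27.4 RPM in control roots (log2 -2.47, SE 0.20). M31, which starts 5 bases later, had 103.7, 76.6 and 78.3 RPM in low-Pi roots and 42.6, 30.2 and 39.8 RPM in control roots (log2 1.20, SE 0.21). M21, annotated to rRNA, was the most abundant lower member, with 26.7, 34.2 and 42.9 RPM in low-Pi roots and 128.1, 155.5 and 203.1 RPM in control roots (log2 -2.23, SE 0.28). Its 23-nt neighbour, which starts 5 bases later, had 10.1, 8.97 and 9.49 RPM in low-Pi roots and 4.81, 4.94 and 8.16 RPM in control roots (log2 0.67). In each of these printed pairs the sequence starting further 5′ was the lower one. The 25-nt sequence containing M30, which starts 1 base before it, was the higher one. Over all 35 opposite pairs the sequence starting further 5′ was lower in 26 and higher in 8, and in 1 pair both started at the same base. These pairs are not separate observations, because M76, M10 and others recur in several of them. M6, whose groups overlapped, is also among them.

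**Figure D4:**
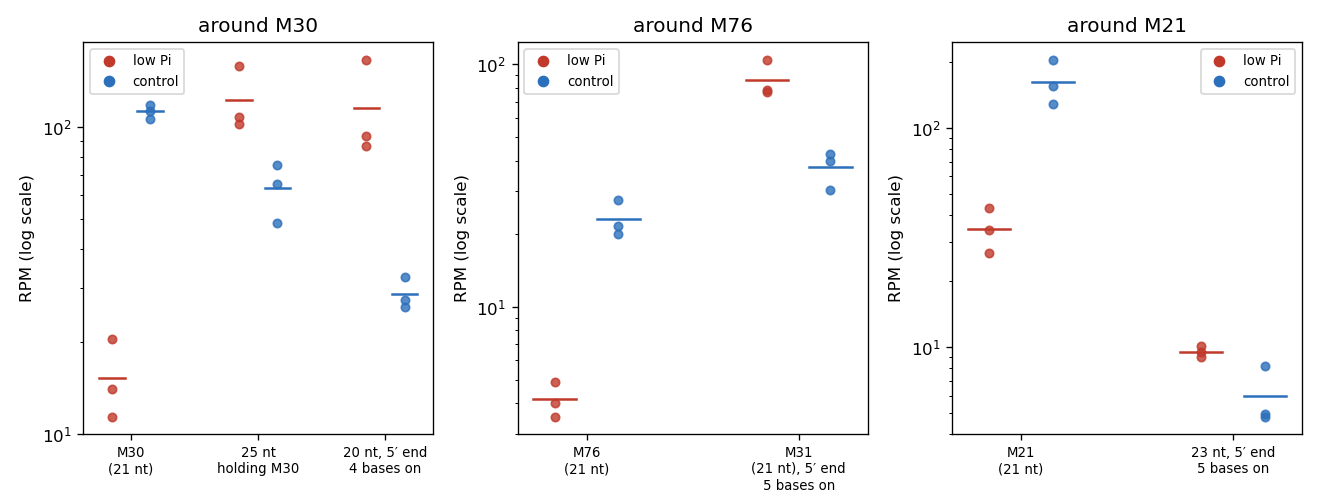
RPM in single root libraries (log scale) for M30, M76 and M21, each beside overlapping sequences of the same table; points are low-Pi and control libraries and bars are group means (n = 3 each). M30, M76 and M21 are lower in every low-Pi library than in any control library, and their neighbours are higher.

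The 30 lower members were a small share of the reads, 0.0193% ± 0.00322 in low-Pi roots and 0.0972% ± 0.0103 in control roots (SD, n = 3 each). Their median abundance was 10.5 RPM and the highest 98.4 RPM, against a median of 5.04 RPM for the higher members. Of them, 23 overlapped another sequence of the table. The lowest ratios among members of at least 1 RPM are shown with the first base in capitals.
M89: Gagggaaagatgaaaaggact
M104: Cggtcaacgagtcgggttgtt
M30: Actggtacggacaaggggaat
M121: Aattagtgacgcgcatgaatg
M92: Gggcgcgagcccgggcggagc
M104, M30, M121 and M92 match rRNA in the study's annotation, and M89 matches a protein-coding transcript. A sixth, M102, overlaps M89 by 20 bases and has no barley match there, so its letters are not printed.

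M89 had 1.60, 1.48 and 0.929 RPM in low-Pi roots and 19.3, 19.8 and 17 RPM in control roots (log2 -3.81, SE 0.23). M102 had 1.47, 1.70 and 2.65 RPM in low-Pi roots and 18.2, 13.0 and 13.9 RPM in control roots (log2 -2.95, SE 0.31). M89 and M102 were thus at similar levels within each group. M104 had 2.20, 1.25 and 1.66 RPM in low-Pi roots and 12.9, 16.6 and 13.0 RPM in control roots (log2 -3.05, SE 0.26). M121 had a log2 ratio of -2.85 (SE 0.24) and M92 of -2.72 (SE 0.33), with all low-Pi values at or under 3.58 RPM and all control values at or above 8.43 RPM. The lowest ratio of all, -5.36 for M228, rests on 2 reads in low-Pi roots and 49 reads in control roots (ratio of depth-scaled reads 0.0231, exact 95% interval 0.00272 to 0.0880, counting error only).

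At the other end, the 6 highest ratios among members of at least 1 RPM were those of M196, M182, M210, M158, M213 and M7. M196 and M210 have no barley match in the study's annotation, so they are given without their letters. M196 had 4.33, 3.63 and 2.45 RPM in low-Pi roots and 0.0875, 0.124 and 0 RPM in control roots, which is 166 against 2 reads (ratio 47.0, exact 95% interval 12.8 to 391.2, counting error only). M210 had 123 reads in low-Pi roots and 5 in control roots (ratio 13.9, interval 5.81 to 43.6). M182 (Ccatagtcgcgaggatcttaa), annotated to rRNA, had 5.13, 3.69 and 3.78 RPM in low-Pi roots and 0.437, 0.371 and 0 RPM in control roots (log2 3.96, SE 0.75). At such control levels, a single library decides the ratio: without control library 18 the log2 ratios of M196, M210 and M182 were 5.04, 3.34 and 3.38. M213, a one-base variant of M3 with 104 reads in low-Pi roots and 4 in control roots, had a log2 ratio of 3.66 (SE 1.0), which was 5.16 without control library 18.

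Of the 247 members, 49 (19.8%) were one-base variants, that is, they differed by 1 substitution from another member at least 5 times as abundant. They stood on 12 parents, with 22 variants of M1, 8 of M2, 8 of M3 and 3 of M16, and all 49 were higher in low-Pi roots. The share of variants ran from 10.9% at 23 nt to 33.5% at 25 nt among the lengths of the table. The most abundant variants of M1 and the variants of M16 are printed with the changed base in capitals, followed by M16 itself with its first base in capitals.
M63: acctactcgaccTttcggccg
M94: acctactcgacccttcgTccg
M97: acctactcgacccttTggccg
M101: Ccctactcgacccttcggccg
M178: Tcgatgattcatgataactcg
M184: ccgatgattcatgataactTg
M203: ccgatgattTatgataactcg
M16: Ccgatgattcatgataactcg
With positions counted from the 5′ end and the parent's base first, these changes are C13T, G18T, C16T and A1C in M1, and C1T, C20T and C10T in M16. Variants of M1 covered 18 of its 21 positions, at most 2 at any of them, and 15 of the 22 changes were transitions (A with G, or C with T).

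Most variants were rare beside their parents: 41 of the 49 had under 1% of the parent's reads in low-Pi roots. The median variant had 0.0904% of its parent's reads in low-Pi roots and 0.0906% in control roots. Together the 22 variants of M1 came to 1.38% ± 0.297 of M1 in low-Pi roots and 1.73% ± 0.275 in control roots (SD, n = 3 each). Those of M3 came to 1.31% ± 0.313 in low-Pi roots and 1.10% ± 0.266 in control roots, and those of M2 to 0.915% ± 0.172 in low-Pi roots and 0.993% ± 0.420 in control roots. In all 3 families the groups differed by no more than about the spread between libraries. Every variant had passed the study's threshold on this same contrast, so variants that stayed flat while their parent rose would be missing. The near proportion to the parents therefore describes the deposited variants only, and the same limit holds for their direction and ratios. Among the 4 families summed, the variants of M16 took the most reads per parent read, 4.49% ± 1.44 in low-Pi roots and 3.77% ± 0.292 in control roots. M203, a variant of M16, itself matches barley rRNA in the study's annotation, and M185, a variant of M3, matches a protein-coding transcript. A variant in this sense can thus be an annotated barley sequence of its own. On other, less abundant parents, 5 single variants had over 5% of the parent's reads in low-Pi roots. They were led by M229 with 17.8% of M131 in low-Pi roots and 3.33% in control roots. M208 had 13.8% of M82 in low-Pi roots and 6.81% in control roots. M215 had 11.3% of M78 in low-Pi roots and 3.12% in control roots. M131 is itself a one-base variant of M1, and the parent of another of the 5 is M96, a one-base variant of M3. M229 rests on a single control read.

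The log2 ratio of a variant of M1 had a median of 2.92, beside 2.85 for M1, and that of a variant of M2 a median of 1.33, beside 1.40 for M2. M63 was 0.213, 0.251 and 0.378% of M1 in the low-Pi libraries and 0.202, 0.246 and 0.369% in the control libraries, the same range in both groups. Some variants departed from their parent. M101 was 0.0905, 0.0859 and 0.138% of M1 in low-Pi libraries and 0.247, 0.239 and 0.249% in control libraries, and M94 was 0.105, 0.101 and 0.135% in low-Pi libraries and 0.276, 0.207 and 0.304% in control libraries. Their own log2 ratios, 1.57 and 1.64, were thus well below that of M1. In the other direction M178 was 1.61, 1.88 and 2.21% of M16 in low-Pi libraries and 1.08, 0.880 and 0.959% in control libraries.

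**Figure D5:**
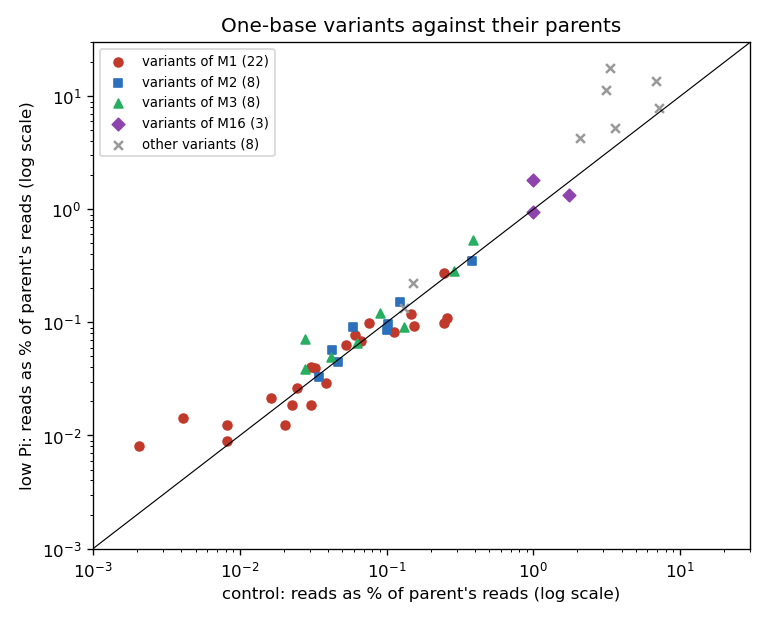
Each point is one of the 49 one-base variants. The axes (log scales) give its summed reads as a percentage of its parent's summed reads in control roots (x) and low-Pi roots (y), symbols mark the parent, and the line marks equality. Most points lie along the line; M101 and M94 lie below it among the variants of M1.

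By first base, 89 members (36.0%) started with C, 69 (27.9%) with A, 46 (18.6%) with G and 43 (17.4%) with T, the DNA letter for U. The other lengths were alike, with 38.3% C, 24.7% A, 18.2% G and 18.7% T. The 734 sequences of 21 nt in the root miRBase table had 33.9% T, and 53.2% T among the 77 of them with a mean of at least 1 RPM. Weighted by mean RPM, T made up 14.2% of the members and 91.6% of those miRBase sequences. Weighted in this way, A led the members at 45.1%, M1 being one of them, and C followed at 35.6%. That order did not hold throughout. Weighted by control RPM alone, C led and A made up 34.6%. Without M1 to M3, weighted by mean RPM, C led at 41.0% and A followed at 28.5%. At the 3′ end, 50.6% of members had G, close to 48.9% of the other lengths, with 55.3% of the higher and 16.7% of the lower members. Without the one-base variants, which mostly keep their parent's last base, 41.4% of members ended in G. The median GC content was 61.9% for the members, 62.5% for the other lengths and 52.4% for the 21-nt miRBase sequences. Higher members had a median of 61.9% and lower members 54.8%. Without the one-base variants, all of which were higher, the median of the members was 57.1%.

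Only M158 and M154 lay within 1 substitution, over at least 18 bases, of a sequence in a miRBase table. M158 is printed with the mature miR399a/miR399b sequence it resembles and M154 alone. Bases 2 to 8, often called the seed, are in capitals.
M158: tGCCAAAGgagaactgccctg
miR399a/miR399b: tGCCAAAGgagaattgccctg
M154: aTGATCACtctcgttttggct
M158 and miR399a/miR399b share the seed and differ by C14T, written from M158 to the miRBase sequence.

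M158 had 7.47, 9.31 and 4.71 RPM in low-Pi roots and 0.350, 0.989 and 0.134 RPM in control roots, which is 112, 164 and 71 reads against 4, 8 and 1 reads (log2 3.87, SE 0.80). Leaving out one library at a time moved its log2 ratio between 3.42 and 4.89. The mature miR399a/miR399b sequence in the same root libraries had 5.73, 2.61 and 4.71 RPM in low Pi and 0.525, 1.48 and 0.937 RPM in control (log2 2.15). M158 exceeded the annotated form in low-Pi libraries 4 and 5 and equalled it at 4.71 RPM in library 6. It was the only member that was also a row of a shoot table. In shoots M158 had 24.2, 39.0 and 18.5 RPM in low Pi and 0.522, 0.245 and 0.282 RPM in control (log2 6.28). The annotated miR399a/miR399b sequence was the more abundant there, with 80.9, 113.8 and 121.2 RPM in low Pi and 4.62, 6.69 and 3.29 RPM in control (log2 4.44). The shoot value of M158 was, like the root value, part of a table selected on the same contrast.

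M154 had 7.87, 4.14 and 6.37 RPM in low-Pi roots and 2.01, 1.85 and 1.34 RPM in control roots (log2 1.82, SE 0.31). It shares 18 bases with the mature MIR9675 sequence of the root miRBase table, shifted by 3 bases, and that annotated sequence averaged only 0.335 RPM in low-Pi roots and 0.261 RPM in control roots. M154 was therefore the more abundant form in each of the 6 libraries. Because of the shift, bases 2 to 8 of M154 are not bases 2 to 8 of the MIR9675 sequence, and a microRNA role of M154 was not tested.

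Besides M158, 6 members overlapped a shoot sequence of the unannotated shoot table, which holds 199 sequences, and in all 6 the direction was the same in both organs. M16 and its variant M184 overlapped a 19-nt shoot sequence with 4.37, 4.19 and 5.39 RPM in low-Pi shoots and 1.64, 1.47 and 1.79 RPM in control shoots (log2 1.51). M16 itself had 342.7, 290.0 and 146.8 RPM in low-Pi roots and 48.5, 42.1 and 55.8 RPM in control roots (log2 2.41, SE 0.35). M85 (Attccggagagggagcctgag) had a log2 ratio of 2.69 in roots and its shoot neighbour 1.72. On the lower side, M88 (Gctgtgccgtccgaattgtag) had 2.73, 3.80 and 5.11 RPM in low-Pi roots and 15.4, 18.7 and 19.8 RPM in control roots (log2 -2.21, SE 0.28), and its shoot neighbours had log2 ratios of -1.72 and -1.98. M99 (Gttcagccggaggtagggtcc) and M141 (Cagccggaggtagggtccagt), which overlap each other, had ratios of -2.64 and -2.50 in roots and shared a 22-nt shoot neighbour at -1.26.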

How the data were processed

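sRNA libraries (TruSeq Small RNA kit) were sequenced by a company for the authors, trimmed, and matched to miRBase; sRNA levels were analysed in CLC Genomics Workbench (version not given in the sources used here). Tables were deposited per organ: whole-number read counts per unique sequence, and RPM, which the authors made by dividing counts by the library total (recovered here as count / RPM × 1000000). The unannotated tables hold only sequences past the study's Bonferroni threshold. The authors' fold changes and p-values were not used, nor were 24 per-sample columns repeating the counts.

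Root sequences of 21 nt were described with Python 3.11.15, without a test. Named members followed a rule: the 8 most abundant; the 6 highest and 6 lowest ratios at a mean of at least 1 RPM; the parents with most one-base variants and their main variants; those near a miRBase sequence or in a shoot table; the smallest ratio on each side of 0. M21, M31, M36, M42, M61, M67, M76, M84, M85, M88, M99, M141, M208, M215, M228 and M229 were chosen after their values were seen. Members and lists were chosen with earlier results of these data known. Letters are printed only for sequences with a barley match in the study's annotation, a miRBase or shoot counterpart, or a parent of that kind. Replicates were compared (chi-square per degree of freedom 12.0 to 94.0), and none was a repeat of another. The grouping, variant and ratio steps were tested on simulated data. No genome was used, so no positions are given. Intervals cover counting error only. A count of 3 reads corresponds to 0.170 to 0.402 RPM in the root libraries.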

Additional observations from a re-analysis of the deposited data

How the results depend on the processing

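The counts of higher (217) and lower (30) members did not change under any scaling, nor when any root library was left out. The other scales all moved the median ratio up, and no lower member lay above -1.77, so shifts of that size could not turn a member. Unscaled counts also keep the greater depth of the low-Pi libraries. With members under 1 RPM removed, the counts were 191 and 29. The median log2 ratio of 1.71 was 2.34 with miRBase reads as the scale, 2.36 with median-of-ratios factors from the miRBase table and 2.56 for unscaled counts, and ran from 1.64 to 1.81 without one library. Separate groups numbered 239, 247 under each of these 3 scales, and 239 to 246 without one library. As a share of the reads in both root tables, members held 9.90% in low-Pi roots and 8.55% in control roots, against 3.14% and 0.945% of all reads; without one library these were 2.93 to 3.37% and 0.902 to 0.994%. One-base variants numbered 45 to 55 and groups of overlapping sequences 157 to 180 under the other definitions. The log2 ratios of the 38 named members kept their sign in all 342 alternatives. Every member was deposited for a difference between these same libraries, so kept counts and signs were largely fixed beforehand. They lend no support to the directions, also where a library was left out. No paired analysis was possible because the groups compared share no replicate number. Depth limits the rarest members: 25 of 247 had 0 reads in at least 1 library, none in a whole group.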
